A study of Homo sapiens with 12 samples.

Results

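The 35 genes described here are type I interferon stimulated genes, listed by name, with DDX58 standing for the RNA sensor RIG-I. They were looked up by symbol in a count table of 26485 genes, and all 35 were found. Of these, 34 had enough reads to be tested. XAF1, a proapoptotic interferon-induced gene, had 0 to 3 reads in each library and was not tested. RNA came from RD cells, an established human line of fusion-negative rhabdomyosarcoma, a tumour with features of immature skeletal muscle. Each line held a hairpin that doxycycline switches on and that targets NT5E, which codes for the ecto-enzyme CD73, which makes adenosine from extracellular AMP. There were 2 hairpin constructs, titled ish and ish2, and each was cultured for 96 h untreated or with doxycycline (Dox) at 10 ng/mL, giving 3 libraries in each of 4 groups and 12 in all. Libraries without Dox are labelled as control and those with Dox as CD73 knockdown, and all 12 carry a hairpin construct. Whether each line is a clone, and what else separates the constructs, is not stated in the labels. A non-targeting hairpin with Dox is not among the 4 groups, so drug, hairpin and loss of NT5E cannot be told apart within a line. Nothing states that replicates were separate cultures, so p-values measure the spread between these libraries, which may be technical.

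Type I interferons are secreted proteins made when a cell senses foreign or misplaced nucleic acid. They bind the receptor pair IFNAR1 and IFNAR2, whose kinases JAK1 and TYK2 phosphorylate STAT proteins, among them STAT2. STAT2 and IRF9 are subunits of ISGF3, a complex that binds the interferon-stimulated response element (ISRE) in the promoters of antiviral genes. Interferon gamma acts mainly through the GAS element, and type III interferons also use ISGF3, so the list does not separate the interferon types.

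Promoter windows of 29 of the 35 genes were matched in the RefSeq table for GRCh38.p14, which gives 250 bases before to 50 bases after each gene's start. The ISRE core, 2 copies of GAAA with any 2 bases between them, searched on both strands, was present in 18 of the 29 (62.1%), against 1255 of 35116 windows in the whole table (3.57%). The GAS element TTCNNNGAA, also searched on both strands, was present in 7 of the 29 (24.1%), against 7.66% of all windows. Matches of a motif may overlap each other. No window was matched for IFIT2, MX2, OAS2, OASL, IRF7 and USP18, so the motif counts leave them out. The 250 bases before the start are shown for 4 genes with ISRE matches and for STAT2, in whose window the core did not occur. These genes show the different directions described below. Other windows lacked the core too. Among them were those of RSAD2, DDX58, IFI35 and IRF9, which fell in ish and rose in ish2. OAS1, HERC6 and SAMD9L, which rose in both, also lacked it. Bases of ISRE matches are in capitals, and a match on the other strand reads TTTC, any 2 bases, TTTC.

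IFIT1: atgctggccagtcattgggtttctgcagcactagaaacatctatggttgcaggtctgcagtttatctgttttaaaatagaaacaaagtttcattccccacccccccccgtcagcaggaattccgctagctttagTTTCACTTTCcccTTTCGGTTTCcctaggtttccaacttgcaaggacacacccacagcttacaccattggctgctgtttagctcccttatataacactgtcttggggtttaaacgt

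IFIT3: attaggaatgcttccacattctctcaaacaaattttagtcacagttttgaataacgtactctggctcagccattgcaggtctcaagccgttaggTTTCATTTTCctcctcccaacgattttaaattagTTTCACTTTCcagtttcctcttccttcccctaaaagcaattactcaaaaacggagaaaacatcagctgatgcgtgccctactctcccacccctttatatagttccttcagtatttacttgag

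ISG15: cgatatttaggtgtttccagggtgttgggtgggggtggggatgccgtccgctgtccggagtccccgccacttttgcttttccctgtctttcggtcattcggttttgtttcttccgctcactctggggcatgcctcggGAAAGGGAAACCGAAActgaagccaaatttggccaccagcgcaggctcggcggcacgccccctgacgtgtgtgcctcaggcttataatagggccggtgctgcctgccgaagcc

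OAS3: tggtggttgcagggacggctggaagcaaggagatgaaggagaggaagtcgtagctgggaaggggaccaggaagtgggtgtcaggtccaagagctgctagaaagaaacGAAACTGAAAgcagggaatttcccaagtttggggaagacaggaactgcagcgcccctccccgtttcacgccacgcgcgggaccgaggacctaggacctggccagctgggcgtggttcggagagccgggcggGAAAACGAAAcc

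STAT2: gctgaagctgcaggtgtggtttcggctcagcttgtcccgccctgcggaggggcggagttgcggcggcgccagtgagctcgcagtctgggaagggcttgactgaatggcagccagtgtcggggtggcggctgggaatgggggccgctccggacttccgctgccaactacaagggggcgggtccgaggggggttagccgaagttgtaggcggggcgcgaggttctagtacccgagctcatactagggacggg

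These stretches lie at chr10:89392373-89392622, chr10:89327747-89327996, chr1:1013247-1013496 and chr12:112938224-112938473 on the plus strand, and at chr12:56360108-56360357 on the minus strand for STAT2. IFIT1 has matches that begin at positions -116 and -103 from the start, and ISG15 has 2 overlapping matches at -113 and -107. IFIT3 has them at -156 and -122, and OAS3 at -143 and -12.

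NT5E was examined first, as the gene targeted. In ish it stood at 14.9, 18 and 17.3 CPM (reads per library total, adjusted by TMM) without Dox and at 1.94, 1.23 and 1.54 with Dox. In ish2 it stood at 24.1, 23.5 and 22.1 CPM without Dox and at 14.5, 15.2 and 14.1 with Dox. The groups did not overlap in either construct, and the fall was far deeper in ish, at a log2 fold change of -3.41 (edgeR adjusted p = 3.31e-25), than in ish2, at -0.67 (edgeR adjusted p = 4.62e-11). The exact two-sided permutation p was 0.1 in each construct, the smallest that 3 against 3 allows. Gene counts per library were 26566603 to 32692207. The spread between replicates was small (biological coefficient of variation 2.44%), so small folds passed the test, such as the 1.12 of EIF2AK2 in ish. In ish, 78.6% of all 15206 tested genes changed with Dox, and in ish2, 65%.

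With Dox, the interferon stimulated genes went mainly down in ish and mainly up in ish2. Their summed level went from 1592 ± 51.6 to 1042 ± 5.05 CPM in ish and from 1502 ± 12.7 to 2359 ± 55.4 CPM in ish2 (mean ± SD, n = 3). The sums with Dox lay below every control sum in ish and above every control sum in ish2. Abundant transcripts weigh most in these sums. The neighbouring genes IFIT1, IFIT2 and IFIT3 had the largest changes in CPM in both constructs. In ish, 21 of the 34 tested genes fell, against 39.5% of all genes, and 8 rose, against 39.1%. In ish2, 29 of the 34 rose, against 33.9% of all genes, and 2 fell, against 31.1%. The median log2 fold change was -0.56 in ish and 0.63 in ish2, while the medians over all tested genes were -0.01 and 0.01.

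The contrast between the constructs was clearer among larger changes. At 1.5-fold or more, 15 of the 34 fell in ish and 0 rose, against 19.9% and 14.9% of all genes. At the same fold, 19 rose in ish2 and 0 fell, against 8.77% and 7.65% of all genes. At 2-fold or more, 8 fell in ish (10.5% of all genes) and 13 rose in ish2 (3.88% of all genes). The libraries with and without Dox did not overlap for 31 of the 34 in ish and 30 in ish2, against 80.6% and 66.6% of all genes. Since most genes in the table separate in this way, that separation does not mark out the interferon genes.

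The difference of the Dox effects, ish2 minus ish, was tested as an interaction over all 12 libraries. It was called for 33 of the 34 genes, against 72.6% of all genes. It was positive for 31 and negative for 2, STAT2 and PARP9, against 37.4% and 35.2% of all genes. It was at least 1.5-fold for 28 in the positive direction, against 21.5% of all genes, and for 1 in the negative direction, against 16.7%, and its median was 1.14 on the log2 scale, against 0.01 over all genes. IFI27, the only tested gene not called in any comparison, had a difference of 0.28 (edgeR adjusted p = 0.573). For 19 of the 34 genes (55.9%) the call was lower in ish and higher in ish2, a pattern found in 14.1% of all genes. Another 6 (17.6%) rose in both, against 13.8% of all genes, and these were IFIH1, OAS1, OAS3, HERC6, SAMD9L and EIF2AK2.

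**Figure D1:**
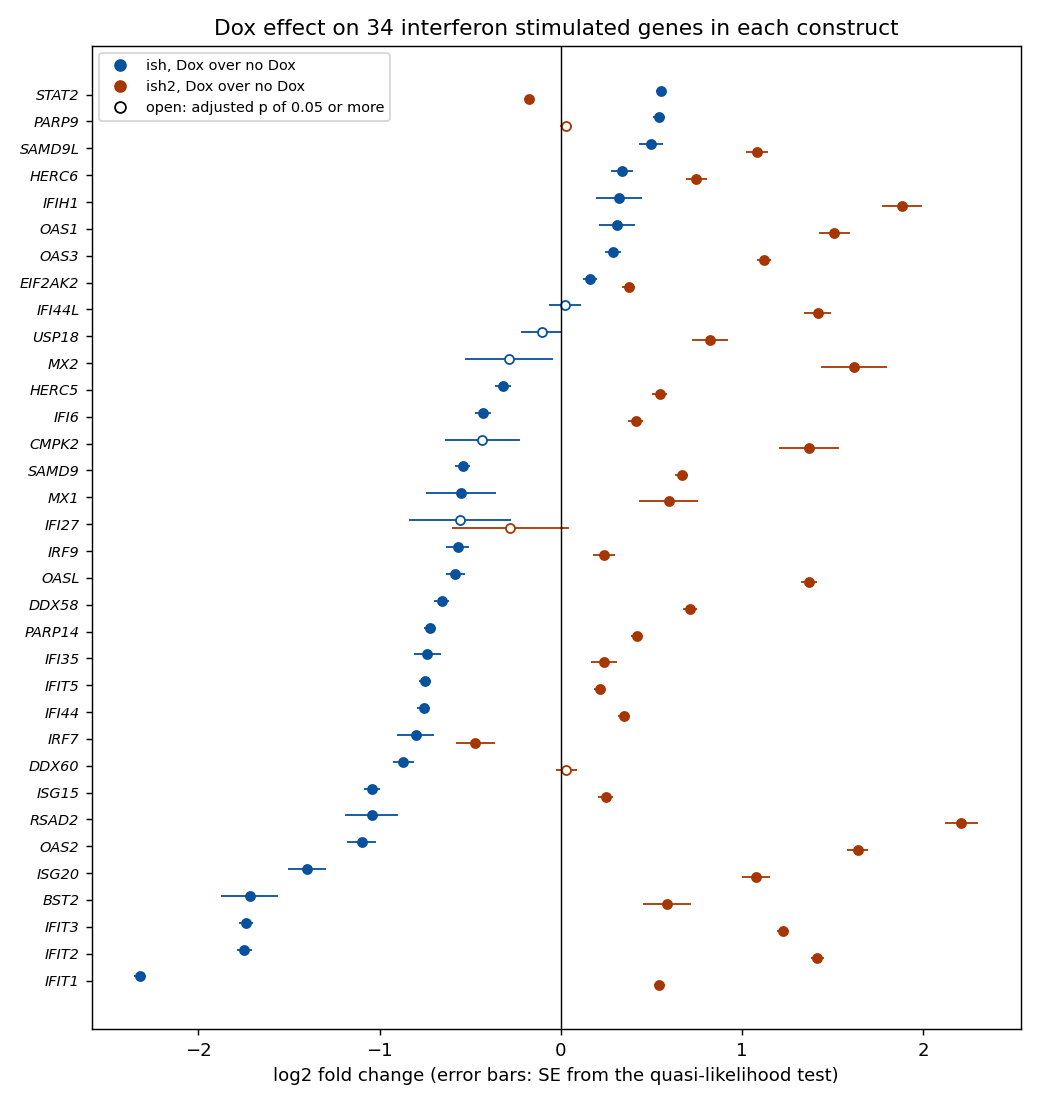
Log2 fold changes of 34 interferon stimulated genes with Dox over no Dox (x axis) in ish (blue) and ish2 (red), with 3 libraries per group; bars are SE from the quasi-likelihood test and open points were not called. Most blue points lie left of 0 and most red points right of it, with STAT2 crossing the other way.

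**Figure D2:**
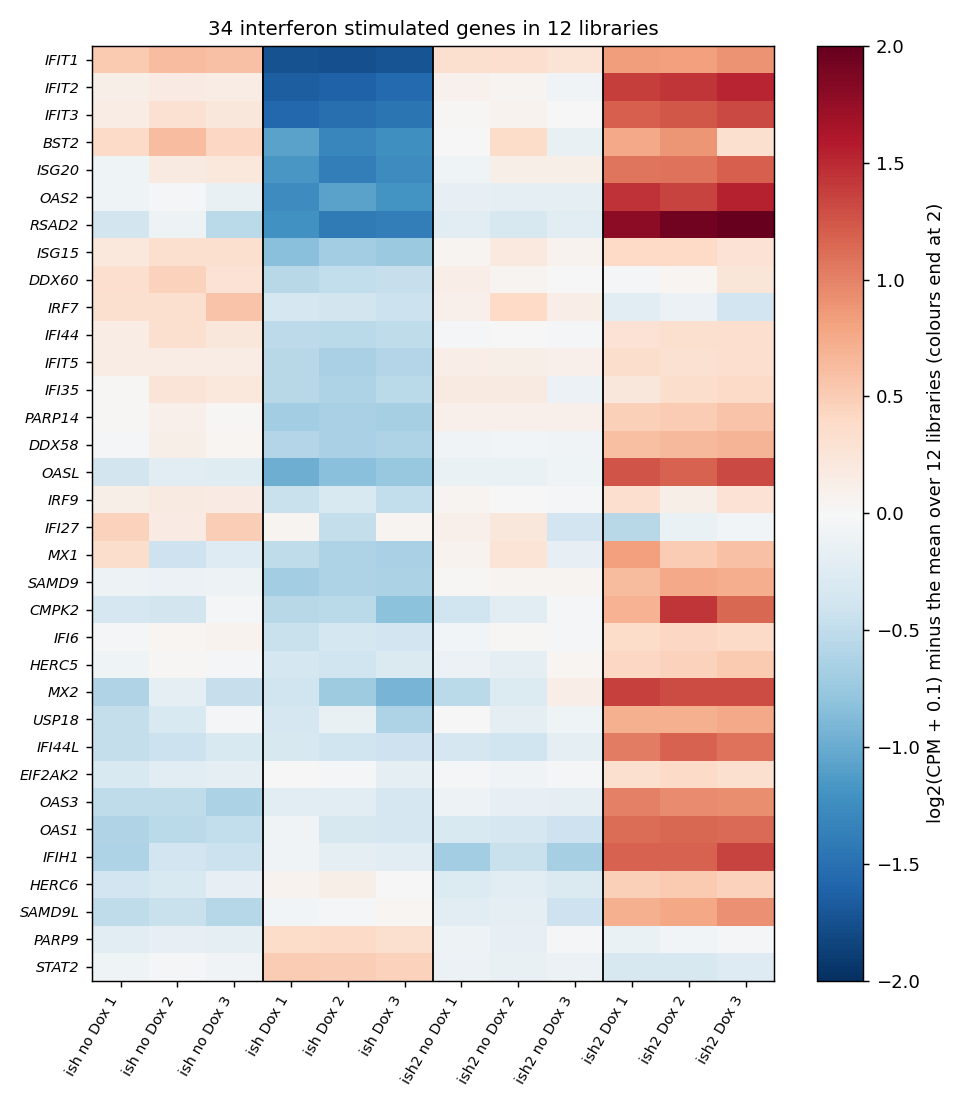
Each gene's log2(CPM + 0.1) minus its mean over the 12 libraries, as colour, with genes in rows and libraries in columns, ordered by the ish fold change. The 3 ish libraries with Dox are blue for most rows and the 3 ish2 libraries with Dox are red, while the libraries without Dox lie between them.

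The IFIT genes code for RNA-binding proteins that block translation of foreign RNA, and they held the deepest falls in ish. All 4 fell in ish and rose in ish2, a pattern found in 14.1% of all genes. IFIT1, which binds RNA lacking the cellular cap methylation, was at 225, 241 and 235 CPM in ish without Dox and at 46.7, 46.6 and 47.3 with Dox. In ish2 it was at 197, 199 and 189.8 CPM without Dox and at 281, 279 and 294 with Dox. The ish libraries with Dox were thus the lowest of the 12 and the ish2 libraries with Dox the highest. IFIT1 fell 5.00-fold in ish (log2 fold change -2.32, SE 0.03, edgeR adjusted p = 1.62e-36) and rose 1.46-fold in ish2 (0.54, SE 0.03, edgeR adjusted p = 1.37e-18).

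IFIT2, a partner that binds AU-rich RNA, was at 114, 118 and 117 CPM in ish without Dox and at 33.7, 34.6 and 35.9 with it. In ish2 it was at 113, 110.5 and 102 CPM without Dox and at 278, 285 and 304 with it. The controls of both constructs were close, and the libraries with Dox lay far to either side of them. IFIT2 fell by 1.75 in ish and rose by 1.42 in ish2 on the log2 scale, a difference of 3.16 (SE 0.05, edgeR adjusted p = 2.47e-29). IFIT3, which stabilises IFIT1, went from 149.5 ± 7.68 to 44.8 ± 1.68 CPM in ish and from 130.2 ± 3.15 to 305 ± 12.1 in ish2, a difference of 2.97 on the log2 scale. IFIT5 moved less, with log2 fold changes of -0.75 in ish and 0.21 in ish2. IFIT1, IFIT2, IFIT3 and IFIT5 lie in a cluster on the plus strand of chromosome 10, within 89283694 to 89421001 of GRCh38. IFIT2 shares 65 exon bases with LIPA on the opposite strand.

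**Figure D3:**
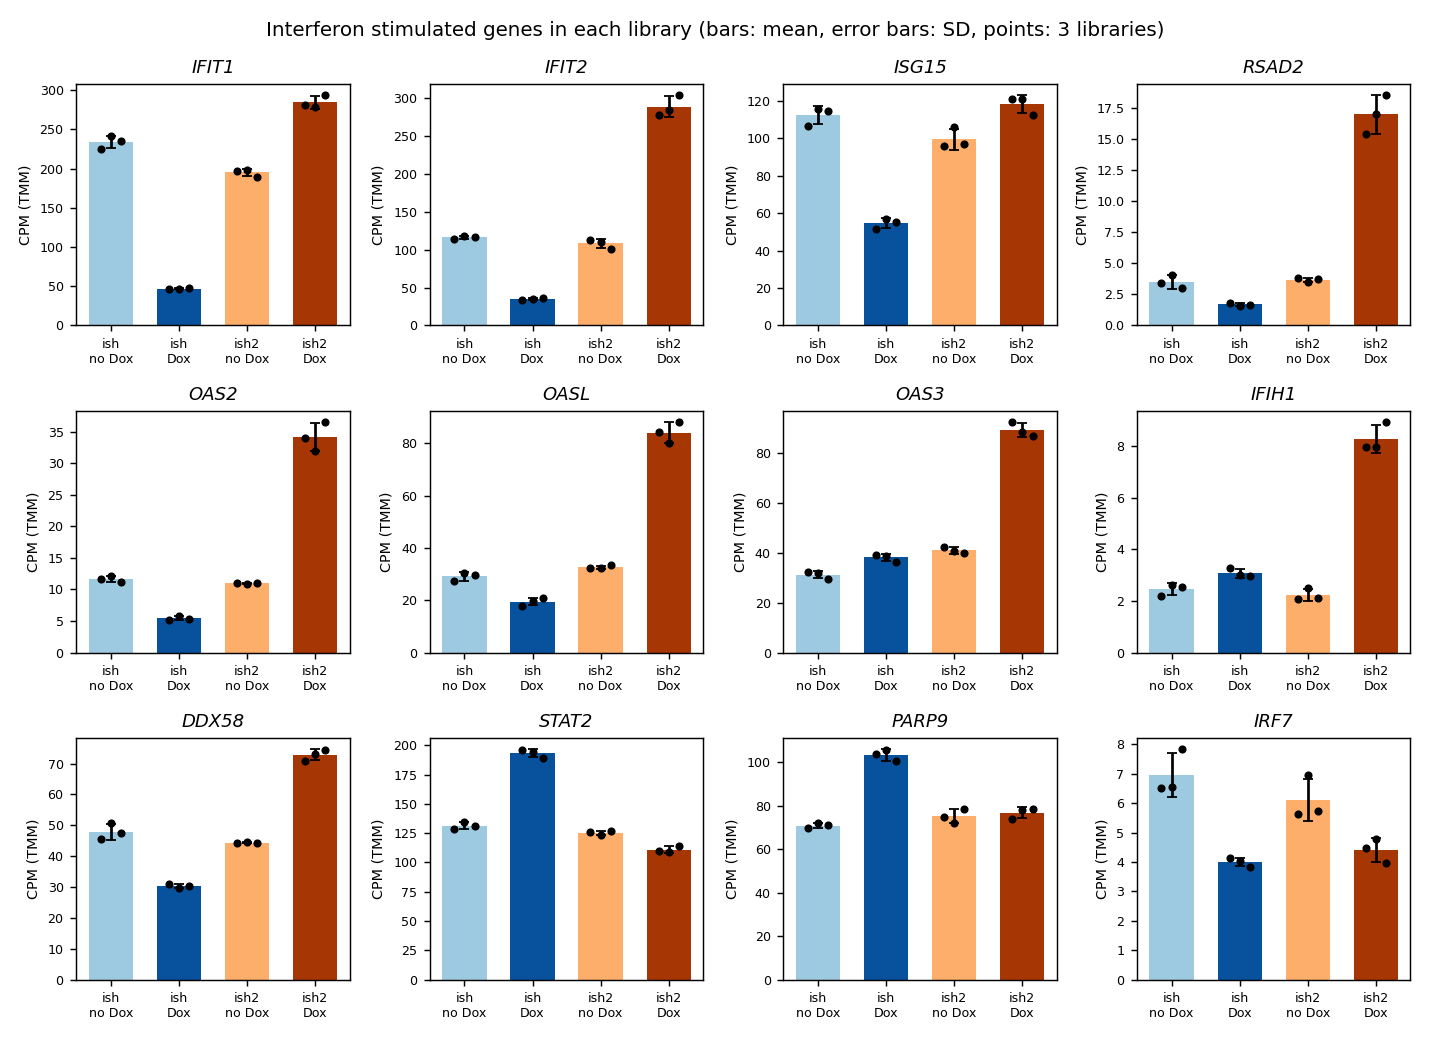
CPM of 12 interferon stimulated genes in each library (points), with the group mean (bars) and SD (error bars) of 3 libraries, y axes starting at 0 and scaled per gene. IFIT1, IFIT2 and ISG15 are low in ish with Dox, RSAD2 and OAS2 are high in ish2 with Dox, and STAT2 and PARP9 are highest in ish with Dox.

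ISG15 is a ubiquitin-like protein that is attached to other proteins, HERC5 is its ligase and USP18 removes it and also dampens the type I receptor. ISG15 was at 107, 116 and 115 CPM in ish without Dox and at 51.6, 56.9 and 55.1 with it, and at 95.8, 106 and 97.0 CPM in ish2 without Dox and 121, 121 and 113 with it. The groups did not overlap in either construct, with a wide gap in ish and a narrow one in ish2. It fell 2.06-fold in ish (log2 fold change -1.04, SE 0.04, edgeR adjusted p = 6.45e-17) and rose 1.19-fold in ish2 (0.25, SE 0.04, edgeR adjusted p = 1.08e-05). HERC5 fell by 0.32 in ish and rose by 0.55 in ish2 on the log2 scale. USP18 was not called in ish (-0.11, edgeR adjusted p = 0.398), where the groups overlapped, and rose by 0.82 in ish2. HERC6, a relative of HERC5, rose in both, by 0.34 and 0.75.

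The OAS enzymes make 2′-5′ oligoadenylates on double-stranded RNA and so switch on RNase L, and the 3 active family members did not move together in ish. OAS2 was at 11.7, 12.2 and 11.2 CPM in ish without Dox and at 5.15, 5.85 and 5.35 with it. In ish2 it was at 11.1, 10.9 and 11 CPM without Dox and at 34, 32 and 36.5 with it. The 6 controls were nearly level, and Dox libraries fell below them in ish and rose above them in ish2, with log2 fold changes of -1.10 (SE 0.08, edgeR adjusted p = 4.04e-15) and 1.64 (SE 0.06, edgeR adjusted p = 2.27e-23).

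OAS3, the family member most needed for RNase L activation, was at 32.2, 32.0 and 29.5 CPM in ish without Dox and at 39.2, 38.8 and 36.3 with it, and at 42.4, 40.7 and 39.8 CPM in ish2 without Dox and 92.3, 88.2 and 86.7 with it. Thus OAS3 rose in both lines, by 0.29 in ish (edgeR adjusted p = 4.02e-07) and by 1.12 in ish2 (edgeR adjusted p = 1.22e-23) on the log2 scale. OAS1 was at 3.69, 3.89 and 4.01 CPM in ish without Dox and 5.38, 4.52 and 4.49 with it, and at 4.59, 4.47 and 4.23 CPM in ish2 without Dox and 12.5, 12.8 and 12.6 with it. Its small rise in ish (0.31, edgeR adjusted p = 0.00546) rested on Dox replicate 1, without which the edgeR adjusted p was 0.0758. In ish2, by contrast, OAS1 rose by 1.51 (edgeR adjusted p = 9.25e-18) and its groups did not overlap. OASL, a relative that enhances RIG-I signalling, went from 29.1 ± 1.58 to 19.4 ± 1.40 CPM in ish and from 32.6 ± 0.643 to 84.1 ± 3.91 in ish2. OAS1, OAS3 and OAS2 are neighbours on the plus strand of chromosome 12, with 5129 bases between OAS1 and OAS3 and 5145 between OAS3 and OAS2.

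Among RNA sensors, DDX58 and IFIH1 went in opposite directions in ish. DDX58, the RIG-I sensor of 5′-triphosphate RNA, was at 45.5, 50.7 and 47.6 CPM in ish without Dox and 31.0, 29.7 and 30.4 with it. It was at 44.3, 44.8 and 44.2 CPM in ish2 without Dox and 70.9, 73.1 and 74.4 with it. It fell by 0.66 in ish (SE 0.04, edgeR adjusted p = 8.42e-17) and rose by 0.71 in ish2 (SE 0.04, edgeR adjusted p = 3.02e-18) on the log2 scale. IFIH1 codes for MDA5, the sensor of long double-stranded RNA. It was at 2.21, 2.62 and 2.55 CPM in ish without Dox and 3.28, 2.99 and 2.95 with it, and at 2.10, 2.52 and 2.13 CPM in ish2 without Dox and 7.95, 7.97 and 8.92 with it. The ish groups stood only just apart, whereas those of ish2 were widely separated. IFIH1 rose by 1.88 in ish2 (edgeR adjusted p = 4.95e-17) and by 0.32 in ish (edgeR adjusted p = 0.0211), and the ish call was lost without Dox replicate 1 (edgeR adjusted p = 0.0862) or without the first ish control (edgeR adjusted p = 0.108). DDX60, an interferon-induced helicase, fell by 0.87 in ish and was not called in ish2 (0.03, edgeR adjusted p = 0.666).

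Of the 3 transcription factors of the list, IRF9 fell in ish and rose in ish2 like most members, and STAT2 and IRF7 did not. STAT2, the ISGF3 subunit that carries the transactivation domain, was at 129, 134 and 131 CPM in ish without Dox and 196, 194 and 189 with it. In ish2 it was at 126, 123 and 126 CPM without Dox and 109.8, 109 and 114 with it. STAT2 thus took the reverse of the common course, rising by 0.55 in ish (SE 0.03, edgeR adjusted p = 6.16e-20) and falling by 0.17 in ish2 (SE 0.03, edgeR adjusted p = 2.26e-06) on the log2 scale. It was the only gene of the 34 called higher in ish and lower in ish2, a pattern found in 12% of all genes. IRF9, the DNA-binding subunit of ISGF3, fell by 0.57 in ish and rose by 0.24 in ish2. IRF9 shares 48.4% of its exon bases with the annotated gene AL136295.5 on the same strand, so some of its reads may belong to that gene.

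IRF7, the factor that amplifies interferon gene expression, was at 6.52, 6.54 and 7.83 CPM in ish without Dox and 4.13, 4.02 and 3.85 with it. It was at 5.63, 6.95 and 5.75 CPM in ish2 without Dox and 4.49, 4.78 and 3.96 with it. It was the only one of the 34 called lower in both lines (14.1% of all genes), with log2 fold changes of -0.80 (edgeR adjusted p = 9.41e-09) and -0.47 (edgeR adjusted p = 0.000239). The difference of 0.33 between lines passed narrowly (edgeR adjusted p = 0.0487) and was not called in 14 of 20 alternative analyses (edgeR adjusted p up to 0.179 without ish control replicate 3).

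All 9 of the other antiviral effectors rose in ish2, by 0.37 to 2.21 on the log2 scale, and 5 fell and 2 rose in ish. Over all genes, 33.9% rose in ish2, and 39.5% fell and 39.1% rose in ish. RSAD2 codes for viperin, which makes a chain-terminating nucleotide. It was at 3.39, 4.08 and 2.98 CPM in ish without Dox and 1.84, 1.59 and 1.63 with it, and at 3.79, 3.49 and 3.72 CPM in ish2 without Dox and 15.4, 17.0 and 18.5 with it. Against like levels in the untreated libraries, RSAD2 fell 2.06-fold in ish (edgeR adjusted p = 5.22e-08) and rose 4.63-fold in ish2 (edgeR adjusted p = 3.05e-21). Its difference of 3.25 on the log2 scale (SE 0.17) was the largest of the 34. CMPK2, a nucleotide kinase that overlaps RSAD2 head to head on chromosome 2, rose by 1.37 in ish2. In ish it had a log2 fold change of -0.43 and was not called (edgeR adjusted p = 0.0551), although 8 of 21 alternative analyses called it lower.

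BST2, or tetherin, which holds budding virions at the cell surface, was at 5.33, 6.29 and 5.47 CPM in ish without Dox and 1.90, 1.59 and 1.69 with it. In ish2 it was at 4.08, 5.29 and 3.69 CPM without Dox and 6.99, 7.60 and 5.15 with it. The ish groups were far apart, but those of ish2 overlapped. BST2 fell 3.29-fold in ish (edgeR adjusted p = 1.43e-10) and rose 1.5-fold in ish2 (edgeR adjusted p = 0.000351). ISG20, an RNA exonuclease, went from 7.44 ± 0.801 to 2.81 ± 0.214 CPM in ish and from 7.16 ± 0.574 to 15.1 ± 0.676 in ish2. Its log2 fold changes were -1.40 and 1.08, both called.

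MX1 and MX2 are dynamin-like GTPases that trap viral nucleocapsids, and both were scarce in these cells. MX2 was at 0.724, 0.989 and 0.807 CPM in ish without Dox and 0.853, 0.665 and 0.554 with it, and at 0.759, 0.939 and 1.27 CPM in ish2 without Dox and 3.12, 3.00 and 3.00 with it. It was not called in ish (-0.29, edgeR adjusted p = 0.277), where the groups overlapped, and rose by 1.62 in ish2 (edgeR adjusted p = 8.05e-10). MX1 went from 1.85 ± 0.571 to 1.26 ± 0.0768 CPM in ish (log2 fold change -0.55, edgeR adjusted p = 0.0104). That call rested on the first control library, at 2.5 CPM, without which the log2 fold change was -0.28 (edgeR adjusted p = 0.196). In ish2, MX1 rose by 0.59. EIF2AK2, the kinase PKR that halts translation on double-stranded RNA, rose in both lines by little, 0.16 in ish and 0.37 in ish2. SAMD9, a restriction factor of poxviruses, fell by 0.54 in ish and rose by 0.67 in ish2, while its paralogue SAMD9L rose in both, by 0.50 and 1.08.

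PARP9 and PARP14 belong to the ADP-ribosyltransferase family and lie 116040 bases apart on chromosome 3. PARP9 was at 69.6, 71.9 and 70.9 CPM in ish without Dox and 104, 105 and 100.5 with it, and at 74.9, 71.8 and 78.4 CPM in ish2 without Dox and 73.7, 77.8 and 78.4 with it. It rose by 0.54 in ish (edgeR adjusted p = 3.71e-17) and was not called in ish2 (0.03, edgeR adjusted p = 0.478), where the groups overlapped. DTX3L, the ubiquitin ligase that pairs with PARP9 and shares its promoter region, was looked at after its values were seen. It rose by 0.45 in ish and by 0.31 in ish2, and its exons share 217 bases with those of PARP9 on the opposite strand. PARP14 took the common course, with log2 fold changes of -0.72 in ish and 0.42 in ish2.

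The genes named IFI were induced by interferon in early screens and have varied or little known functions. IFI6, a mitochondrial protein that opposes apoptosis, fell by 0.43 in ish and rose by 0.41 in ish2. IFI44 fell by 0.76 in ish and rose by 0.35 in ish2. Its neighbour IFI44L was at 5.79, 6.03 and 6.58 CPM in ish without Dox and 6.50, 6.15 and 6.09 with it, and at 6.39, 6.12 and 7.09 CPM in ish2 without Dox and 16.6, 18.5 and 17.4 with it. The ish groups overlapped and were not called apart (0.02, edgeR adjusted p = 0.812), whereas in ish2 IFI44L rose by 1.42 (edgeR adjusted p = 1.29e-18). IFI35 fell by 0.74 in ish and rose by 0.24 in ish2, but without ish2 Dox replicate 3 that rise had an edgeR adjusted p of 0.0562. IFI27 stayed under 1 CPM in every library, with means of 0.681, 0.460, 0.501 and 0.411 CPM in ish without and with Dox and in ish2 without and with Dox.

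The list holds 11 pairs of neighbouring genes, with at most 116040 bases between them. Of these pairs, 4 had the same call in ish, the 3 pairs of IFIT genes and OAS1 with OAS3, and 7 did not. Among the 7, OAS2 fell while OAS3 beside it rose, HERC5 fell and HERC6 rose on chromosome 4, SAMD9 fell and SAMD9L rose on chromosome 7, and PARP14 fell and PARP9 rose on chromosome 3. In the remaining 3, IFI44, RSAD2 and MX1 fell in ish while IFI44L, CMPK2 and MX2 were not called. In ish2 both genes rose in 10 of the 11 pairs, the exception being PARP9, which was not called (0.03) while PARP14 rose. Since 29 of the 34 tested genes rose in ish2, a shared rise there does not mark out neighbours. In ish, 21 of the 34 fell and 8 rose, so unrelated pairs would also often share a call. The 4 of 11 pairs in ish therefore do not mark out neighbours either. The 3 IFIT pairs share genes of 1 cluster, so they are not independent. An ISRE core lay in the promoter window of 12 of the 16 matched genes that fell in ish and rose in ish2, and in 3 of the 6 that rose in both. Among the 28 tested genes with a window, the median log2 fold change in ish was -0.64 for the 18 with a core and -0.06 for the 10 without, and in ish2 it was 0.55 and 0.73. These medians describe the list and were not tested.

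Untreated cultures of the constructs, also kept for 96 h, were much closer to each other. Without Dox, 13 of the 34 genes differed, against 26.1% of all genes, with 5 higher in ish2 than in ish and 8 lower, against 13.7% and 12.4%. At 1.5-fold or more, 0 were higher and 0 lower, against 0.388% and 1.44% of all genes. The 19 whose groups did not overlap compare with 38.2% of all genes. The median log2 difference was -0.05. The 2 largest called differences were OAS3, 0.39 higher in ish2 (edgeR adjusted p = 2.55e-08), and BST2, 0.39 lower in ish2 (log2 -0.39, edgeR adjusted p = 0.0326). The BST2 call was lost in 5 of 20 alternative analyses, which were DESeq2 (adjusted p = 0.0572) and leaving out ish control replicate 2 or 3 or ish2 control replicate 1 or 3 (edgeR adjusted p up to 0.152). In this comparison line and construct cannot be told apart.

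Compared per kb of merged exons, ISG15 was the most abundant of the 34 transcripts in ish without Dox, at 119.3 CPM per kb, followed by IFIT3 at 56.6, IFI44 at 55.9, IFIT1 at 50.8 and IFI6 at 40.4. MX2, at 0.0644 CPM per kb, and IFI27, at 0.164, were the scarcest. In ish2 with Dox, ISG15 was at 125.7 and IFIT3 at 115.5 CPM per kb, and IFIT2 came next at 70.5. In ish with Dox, IFIT1 was at 10.2 CPM per kb, IFIT2 at 8.47 and STAT2 at 31.6. Exon lengths are those of GENCODE for GRCh38 and include exons that RD cells may not use, so the order is approximate.

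**Figure D4:**
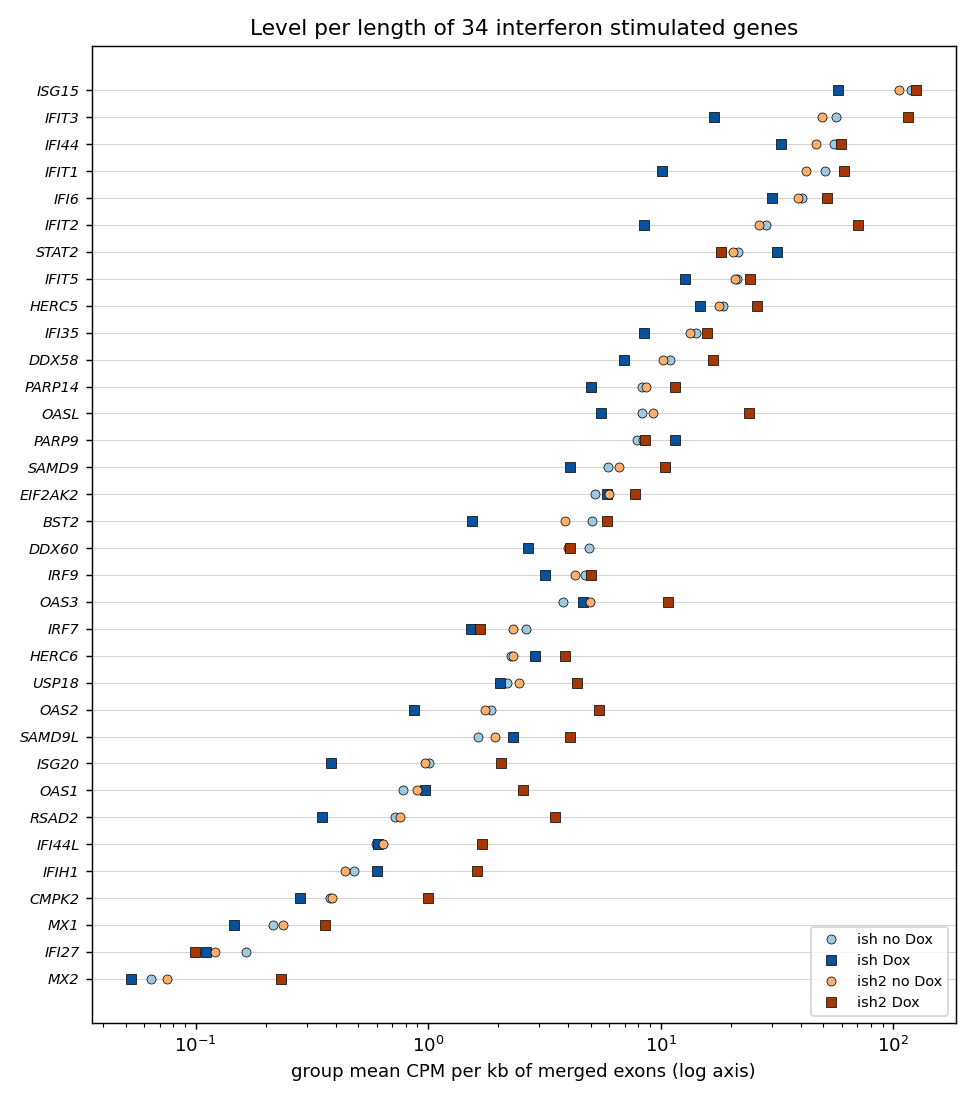
Group mean CPM per kb of merged exons (log x axis) for 34 interferon stimulated genes (rows) in 4 groups of 3 libraries. ISG15 is at the top at 119.3 CPM per kb in ish without Dox and MX2 at the bottom at 0.0644.

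The transcripts of the interferons themselves were at or near 0. Of 21 interferon genes of types I, II and III, none passed the filter for testing, 16 had 0 reads in all 12 libraries, and the most in a library was 3 reads, for IFNL1. A count of 0 allows up to 3 reads, or 0.0923 CPM in the deepest and 0.113 CPM in the shallowest library, counting error only. A difference in interferon transcripts was therefore not detectable at this depth.

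The receptor chains did not move together in ish. Of 9 receptor and kinase genes, 2 rose and 4 fell in ish, against 39.1% and 39.5% of all genes, and 8 rose and 1 fell in ish2, against 33.9% and 31.1%. The falls in ish are near the share of all genes. IFNAR1, the chain bound to TYK2, went from 53.5 ± 1.94 to 36.7 ± 1.61 CPM in ish and from 56.2 ± 2.09 to 76.1 ± 0.736 in ish2, with log2 fold changes of -0.54 and 0.44. IFNAR2, the chain bound to JAK1, went from 17.8 ± 0.977 to 47.9 ± 0.129 CPM in ish (1.43, edgeR adjusted p = 8.50e-26) and from 18 ± 0.352 to 24.3 ± 0.974 in ish2 (0.44). JAK1 rose in both lines, by 0.90 and 0.24, and TYK2 fell in both, with -0.33 and -0.16. The interferon gamma receptor chains IFNGR1 (-0.29 and 0.39) and IFNGR2 (-0.98 and 0.14) fell in ish and rose in ish2. JAK2 (0.18 and 0.33) and IL10RB (-0.04 and 0.32), a chain of the type III receptor, were not called in ish and rose in ish2. So was IFNLR1, its partner, at means of at most 0.430 CPM. The difference between lines was called for 8 of the 9 genes, against 72.6% of all genes. It was positive, so higher in ish2 relative to ish, for 6 and negative for 2, against 37.4% and 35.2% of all genes.

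Transcription factors of the pathway outside the list were also measured. IRF1, an interferon-induced activator, had log2 fold changes of -0.91 in ish and 0.91 in ish2, both called. IRF2 gave -0.18 and 0.53, both called, and IRF3, the factor activated by nucleic acid sensing, gave -0.45 in ish, called, and -0.04 in ish2, not called. STAT3 was not called in ish (0.03) and rose by 0.22 in ish2. IRF5, at means of at most 0.447 CPM, was not called in ish (0.01) and rose by 1.18 in ish2, a call lost with DESeq2 (adjusted p = 0.0738) and without ish2 control replicate 1 (edgeR adjusted p = 0.0568).

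Of 11 tested sensors and adaptors, 2 rose and 6 fell in ish (39.1% and 39.5% of all genes), and 6 rose and 2 fell in ish2 (33.9% and 31.1% of all genes). DHX58, the RIG-I relative LGP2, went from 24.6 ± 0.725 to 8.42 ± 0.781 CPM in ish and from 21.3 ± 1.29 to 32.3 ± 1.05 in ish2, with log2 fold changes of -1.54 and 0.60. TMEM173, or STING, fell by 0.76 in ish and was not called in ish2 (0.04). MB21D1, or cGAS, gave -0.13 in ish, not called, and rose by 0.62 in ish2, and TLR3, an endosomal sensor of double-stranded RNA, gave -0.04, not called, and rose by 1.13. ADAR, which edits double-stranded RNA, fell in both, with -0.31 and -0.17. IKBKE fell by 0.77 in ish, and TRAF3 rose by 0.30 in ish and fell by 0.21 in ish2. MAVS, TBK1 and TICAM1 had small changes whose calls varied with the analysis. MAVS fell by 0.07 in ish, a call lost with DESeq2 (adjusted p = 0.0512), and was not called in ish2 (-0.06), where 13 of 21 alternative analyses called it lower. TBK1 rose by 0.10 in ish and 0.21 in ish2, and the ish call was lost with no scaling factor and without ish Dox replicate 2 or ish control replicate 1 or 2 (edgeR adjusted p up to 0.149). TICAM1 was not called in ish (-0.04) and rose by 0.20 in ish2, but not without ish2 control replicate 3 (edgeR adjusted p = 0.131). The difference between lines was called for 9 of the 11, against 72.6% of all genes. It was positive for 8 and negative for 1, against 37.4% and 35.2% of all genes.

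Of 5 tested negative regulators, 1 rose and 2 fell in ish, and 2 rose and none fell in ish2. The falls in ish and the rises in ish2 are about as frequent as among all genes (39.5% and 33.9%). SOCS3, an inhibitor of JAK kinases, gave -0.89 and 0.41, both called, and SOCS1, the main inhibitor of type I signalling among them, gave -0.10, not called, and 1.06, called. CISH fell by 0.79 in ish and was not called in ish2 (0.01). PTPN11 (0.06 and -0.04) and PIAS1 (0.08 and -0.07) had small log2 fold changes, and the ish call of PTPN11 was lost in 16 of 21 alternative analyses. The difference between lines was positive for 3 of the 5 and negative for 2, against 37.4% and 35.2% of all genes.

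Of 38 further interferon stimulated genes, 34 were tested, of which 9 rose and 16 fell in ish, and 30 rose and 2 fell in ish2, with medians of -0.04 and 0.47. The falls in ish are near the 39.5% of all genes, whereas 33.9% of all genes rose in ish2. The IFITM proteins, which block viral fusion, held the deepest falls in ish. IFITM1 went from 15 ± 0.213 to 2.38 ± 0.236 CPM in ish and from 12.4 ± 0.701 to 17.4 ± 0.573 in ish2, with log2 fold changes of -2.65 and 0.49. IFITM2 gave -2.41 and 0.28, and IFITM3 gave -1.59 and 0.38, all called. These 3 are related genes of similar sequence, so some of their reads may be misplaced or, without a unique alignment, left uncounted. ZC3HAV1, the antiviral protein ZAP, gave -0.88 and 0.61, both called. IFI16, a DNA sensor, gave -0.05, not called, and 1.01, called. UBE2L6, the conjugating enzyme for ISG15, gave -0.19 and 0.61, and ZNFX1 gave -0.12 and 0.64, all called. The ish call of ZNFX1 was lost in 1 of 21 alternative analyses (adjusted p up to 0.0664). The difference between lines was positive for 24 of the 34 and negative for 5, against 37.4% and 35.2% of all genes.

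Of 23 genes typical of interferon gamma, 15 were tested, of which 3 rose and 12 fell in ish and 15 rose in ish2, with medians of -0.97 and 0.58. Over all genes 39.1% rose and 39.5% fell in ish, and 33.9% rose in ish2. HLA-B, a class I antigen-presenting molecule, went from 41.9 ± 2.53 to 16.6 ± 0.567 CPM in ish and from 38.9 ± 1.82 to 99.3 ± 2.42 in ish2. HLA-C gave -1.02 and 1.00, both called, though reads that fit several similar class I genes may be misplaced or left uncounted. TAP2, which carries peptides to class I molecules, gave -1.10 and 0.55, PSMB9 of the immunoproteasome gave -0.73 and 1.23, and IFI30, a lysosomal thiol reductase, gave -2.03 and 0.34, all called. The difference between lines was positive for 12 of the 15 and negative for 1, against 37.4% and 35.2% of all genes.

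**Figure D5:**
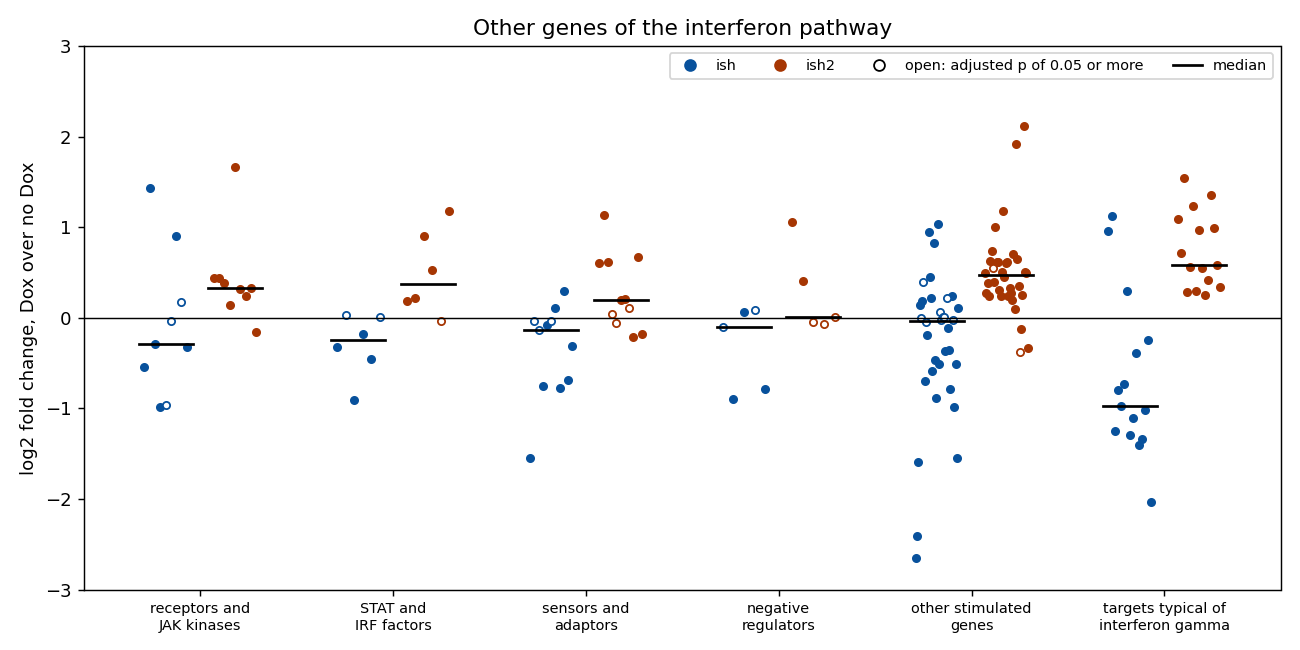
Log2 fold changes with Dox (y axis) of tested genes in 6 lists of the interferon pathway, for ish (blue) and ish2 (red); open points were not called and black lines are medians. In ish2 the medians lie above 0, though that of the negative regulators is only 0.0067. The list typical of interferon gamma is lowest in ish, with a median of -0.97.

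The RD label was checked against 7 muscle markers. MYOD1, DES and CHRNA1 were high in all libraries, and MYF5 and MYF6 were scarce in all. MYOG and MYH3 were much lower in ish2 with Dox, at means of 17.6 and 24.6 CPM, than in the other groups. The summed level of the 7 markers was 1557 to 1631 CPM in ish without Dox and 2907 to 3116 with it. In ish2 it was 1709 to 1743 CPM without Dox and 1819 to 1854 with it, where CHRNA1 alone had a mean of 1153 CPM. MYOG, the factor of terminal muscle differentiation, went from 106 ± 3.82 to 654 ± 16.1 CPM in ish and from 82.9 ± 10.3 to 17.6 ± 1.03 in ish2. MYH3, an embryonic myosin, also rose in ish and fell in ish2, with log2 fold changes of 3.28 and -1.21. By contrast MYOD1 (1.6 and 0.17) and DES (0.82 and 0.65) rose in both lines, and CHRNA1 fell by 0.28 in ish and was not called in ish2 (0.02). The part of the muscle genes in the interferon result was not tested. The sum of 10 leukocyte and plasmacytoid dendritic cell markers was 4.63 to 5.00 CPM in ish without Dox and 3.66 to 4.65 with it, and 4.19 to 5.45 in ish2 without Dox and 8.09 to 8.28 with it. It came mostly from CD68, IL3RA and CD14, while PTPRC, CD3E, LILRA4 and CLEC4C had at most 2 reads in any library. The sum of 4 endothelial markers went from between 9.44 and 10.0 to between 2.09 and 2.92 CPM in ish, and was 10.7 to 11.2 and then 10.3 to 10.9 CPM in ish2, nearly all from TEK, with PECAM1, CDH5 and VWF at most at 0.428 CPM in any library. The sum of 4 epithelial markers was 31.9 to 33.7 CPM and 6.79 to 8.67 CPM in ish, and 37.5 to 42.4 and 60.2 to 61.2 in ish2, mostly KRT18 and KRT8, with EPCAM and CDH1 at most at 0.506 CPM. The part of these markers in the interferon result was not tested. In bulk RNA, fewer cells with a transcript and less transcript per cell cannot be told apart.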

How the data were processed

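RNA from 12 libraries of RD cells was sequenced as stranded mRNA libraries with paired 75-base reads, per the labels' protocols. The authors deposited 1 table of raw counts per gene symbol without normalization. Tools listed in the submitters' processing notes are STAR 2.7.3a, Trim Galore 0.6.4, Subread 1.6.3 and featureCounts, with the GRCh38 build. The gene annotation and the strand setting of the counting are not stated in the labels. Whether reads of overlapping genes on opposite strands were assigned to a gene or set aside as ambiguous is therefore not known. Groups came from sample titles matched to column headers, with Sh1 read as ish and Sh2 as ish2. The 5 special rows stayed out of the fits. Reads in no feature made up 10.8% to 12.8% of all counts, ambiguous reads 2.08% to 2.65% and reads without a unique alignment 7.15% to 9.57%.

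Genes were filtered with filterByExpr (15206 of 26485 kept), scaled with TMM and fitted as 4 group means with edgeR 4.0.16 (robust quasi-likelihood, R 4.3.3), with Benjamini-Hochberg adjustment over all tested genes and a threshold of 0.05. A gene "rose" or "fell" only if it passed. SE is the absolute log2 fold change over the square root of F and is approximate. Replicate libraries differed by more than sampling noise, with a chi-square of 1.33 to 4.05 per degree of freedom. The 35 genes and the pathway lists were chosen with earlier results of these data known, so lists are described by counts and medians with no test. Most listed genes given library by library have a change among the 8 largest in a construct or a sign unlike most. DDX58, which has neither, is also given so. Some genes that meet this rule, such as CMPK2, HERC6, SAMD9L and EIF2AK2, are given by fold change only. All tested genes of the receptor, STAT and IRF, sensor and negative regulator lists are named, and for the last 2 lists the 4 with the smallest p per construct, except that a few list and marker genes are not reported here by name and stay in the counts and sums. Alternatives were other scalings, filters, tools (DESeq2 1.42.0, limma-voom 3.58.1), a replicate block, separate fits, stricter calls and leaving out each library. Promoter windows are from RefSeq (GRCh38.p14), and positions from GENCODE (GRCh38).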

Additional observations from a re-analysis of the deposited data

Results flagged for a closer look

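The Dox effect differed between the constructs for 33 of the 34 tested genes by the interaction test of edgeR, against 72.6% of all tested genes. Values are log2 differences, ish2 minus ish, with edgeR adjusted p from 3.90e-35 (IFIT1) to 0.0487 (IRF7). The widest were RSAD2 3.25, IFIT2 3.16, IFIT3 2.97, IFIT1 2.87, OAS2 2.74, ISG20 2.48 and BST2 2.31. Intermediate values were OASL 1.95, MX2 1.91, CMPK2 1.81, IFIH1 1.56, IFI44L 1.39, DDX58 1.37, ISG15 1.29, SAMD9 1.21, OAS1 1.20, MX1 1.15, PARP14 1.14 and IFI44 1.10. Differences under 1 were IFI35 0.98, IFIT5 0.96, USP18 0.93, DDX60 0.90, HERC5 0.87, IFI6 0.84, OAS3 0.83, IRF9 0.81, SAMD9L 0.59, HERC6 0.41, IRF7 0.33 and EIF2AK2 0.21. STAT2, at -0.73, and PARP9, at -0.51, were lower in ish2 relative to ish. Of the 33, the call of IRF7 was lost in 14 of 20 alternative analyses, and no other was lost in any of them. For the 19 genes that fell in ish and rose in ish2, the lines moved in opposite directions.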

How the results depend on the processing

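Of 228 gene results for the 35 listed genes, NT5E and the named pathway genes, none that passed the test changed direction under any alternative, while 16 lost their call in at least 1 and 11 gained one. The listed genes that lost a Dox call were IFI35 in ish2 and IFIH1, MX1 and OAS1 in ish, each on leaving out 1 library. With a fold of at least 1.5 required, 0 genes rose in ish, 19 rose and 0 fell in ish2, 1 had a negative difference, and 0 differed in either direction without Dox. At an adjusted p under 0.01, 3 were higher and 5 lower in ish2 without Dox, and DESeq2 also gave 5 lower. Leaving out each library in turn gave 5 to 8 lower without Dox (5 without ish control replicate 2 or 3), medians of -0.59 to -0.57 in ish, 0.61 to 0.70 in ish2, 1.11 to 1.17 for the difference and -0.083 to -0.032 without Dox, and NT5E changes of -3.59 to -3.28 and -0.72 to -0.66. With no low-count filter the ish2 median was 0.67, XAF1 being then included.

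Results that reversed had not passed the test. With no scaling factor the ish values were -9.19e-05 for IFI44L and -0.010 for IRF5. CISH in ish2 was -0.018 with upper-quartile scaling, -0.0017 with a filter of 1 CPM in 3 libraries and -0.0043 when fitted on its own 6 libraries. Leaving out 1 library at a time, values without Dox ranged from -0.15 to 0.010 for IFI35, -0.14 to 0.0067 for ISG20, -9.72e-05 to 0.42 for MX1, -0.028 to 0.21 for RSAD2, -0.073 to 0.15 for CMPK2 and -0.032 to 0.081 for HERC6. Dox effects in ish ranged from -0.021 to 0.070 for IFI44L, -0.22 to 0.014 for USP18, -0.12 to 0.018 for TLR3 and -0.42 to 0.95 for IRF5. Those in ish2 ranged from -0.072 to 0.073 for DDX60, -0.019 to 0.047 for PARP9, -0.034 to 0.081 for TMEM173, -0.012 to 0.17 for IKBKE and -0.047 to 0.024 for CISH. The cause was not tested.

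With the replicate number as a block, 8 genes rose and 22 fell in ish, 29 rose and 2 fell in ish2, and the difference was positive for 30. CMPK2 in ish gained a call (adjusted p = 0.0462) and the IRF7 difference lost it (adjusted p = 0.055). The numbers did not pair the libraries: residuals of like numbers correlated at -0.0798 to 0.0295, and 3 of 12 libraries correlated best with their own number. Precision is lowest for genes near 1 CPM, such as MX2, IFI27, MX1 and CMPK2, and XAF1 and the interferons are too scarce to test.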
